A study of Mus musculus with 14 samples.

Results

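Classical dendritic cells (cDC) that carry CD4 were set against their committed bone marrow precursors (pre-cDC), with 2 arrays of each cell type, 4 of the 14 arrays of a study of mouse myeloid progenitors and mature cells that has 7 groups of 2. The 4 groups not described here, wildtype and Irf8 knockout (IRF8KO) granulocyte-monocyte progenitors, wildtype common dendritic progenitors and wildtype neutrophils, enter the fit and the ranges over arrays. The CD4+ cDC were taken from the spleen of wildtype C57BL/6 mice by their labels, as CD11c+ MHC-II+ CD4+ CD8- cells purified with magnetic beads (MACS) alone. The pre-cDC were taken from the bone marrow of wildtype C57BL/6 mice, lacked lineage markers and MHC-II, carried CD11c, CD135 and CD172a, and were sorted by flow cytometry (FACS) after the beads. Values of the CD8+ cDC of wildtype C57BL/6 spleen (CD11c+ MHC-II+ CD4- CD8+, beads and then FACS, 2 arrays) are set beside these where they help, because those arrays share the tissue with CD4+ cDC and the array design with pre-cDC. The labels do not say whether the 2 replicates of a group came from separate animals, and p-values therefore reflect the spread between arrays of a group, which could be technical.

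Pre-cDC are the last precursor stage of the classical dendritic cell line. They leave the marrow in the blood, settle in the spleen and other organs, divide there a few more times and become either cDC1 or cDC2. In mouse spleen the CD8+ cDC are cDC1, which depend on the transcription factors IRF8 and BATF3 and cross-present antigen to CD8 T cells, and the CD4+ cDC are the main part of cDC2. Splenic CD4+ cDC depend on signals through the receptor Notch2, on the factor RelB and on IRF4, and they present antigen on MHC class II to CD4 T cells. The comparison therefore addresses which genes differ between the marrow precursor and one of its mature forms.

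The 2 cell types were hybridised to different Agilent designs, CD4+ cDC to a smaller and pre-cDC to a larger one. Array design, slide, scan day, tissue and sorting method all change together with the cell type, and cannot be told apart from it, so only large differences are described. Of 39429 probes that both designs hold, 432 with several spots on the array and 26 with a spot marked as an outlier were left out, and the 38971 others gave 19983 named genes. Each gene has 1 probe, the brightest over the 4 arrays. A probe was well above background, by the scanner software's own flag, for 61.3% and 59.6% of these probes on the CD4+ cDC arrays, against 49.1% and 47.2% on the pre-cDC arrays, with 55.4% and 56.9% on the CD8+ cDC arrays. The lowest level still well above background was 4.08 and 4.27 log2 intensity on the CD4+ cDC arrays, against 5.33 and 5.55 on the pre-cDC arrays. Where a gene was not well above background on either array of its dimmer group, the fold change is given as a bound ("at least"), set against that floor. Replicates were close, with a correlation across genes of 0.993 for CD4+ cDC and 0.991 for pre-cDC.

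A gene entered the test if both CD4+ cDC arrays or both pre-cDC arrays had it well above background, and was called if it differed by at least 2 on the log2 scale (4-fold) with an adjusted p under 0.05 (limma on all 14 arrays, two-sided, Benjamini-Hochberg). Of 13078 genes tested, 1395 were called higher in CD4+ cDC (10.7%) and 880 lower (6.73%). The median log2 difference over all genes tested, CD4+ cDC minus pre-cDC, was 0.17. Of the genes called higher, 754 were not well above background on either pre-cDC array, and 340 of those had a bound of at least 4-fold. Of the genes called lower, 102 were not well above background on either CD4+ cDC array. Among the 10522 genes well above background on all 4 arrays, 561 were higher (5.33%) and 736 lower (6.99%), so the balance of calls turned with the dim genes: 61.3% of all calls were higher, and 43.3% of those on 4 measured arrays. A gene that was tested through 1 group alone had to differ, so counts over gene lists are given with those on 4 measured arrays beside them, and the background for each is the share over all genes tested or over those on 4 measured arrays. In RNA from a purified population, fewer cells of a type and less RNA per cell cannot be told apart.

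**Figure D1:**
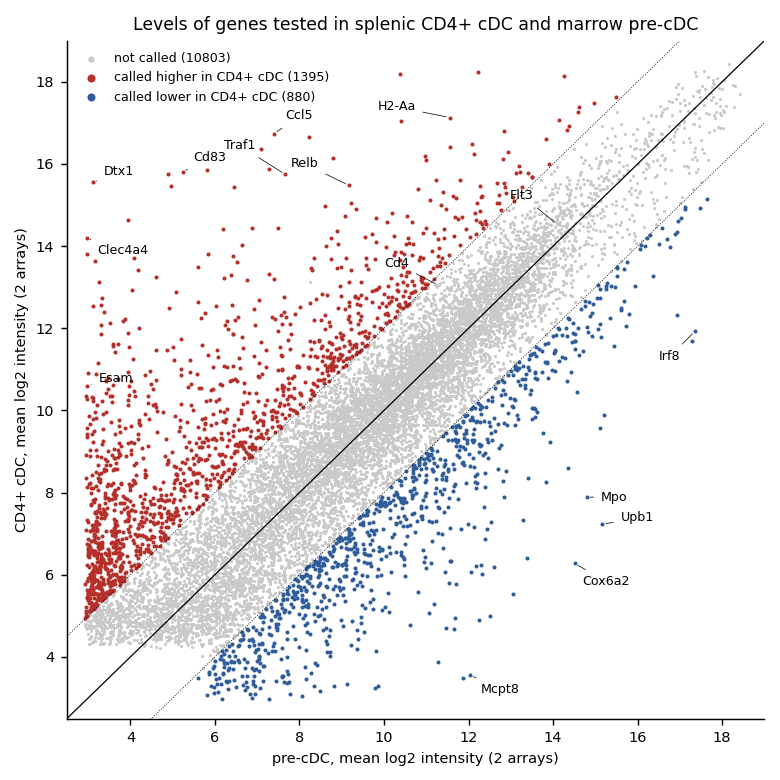
Mean log2 intensity of each gene tested in CD4+ cDC (vertical axis, 2 arrays) against pre-cDC (horizontal axis, 2 arrays). The solid line is equality, the dotted lines a log2 difference of 2; 1395 genes were called higher in CD4+ cDC and 880 lower, and many of the genes called higher lie at the left edge, where pre-cDC were not well above background.

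The gate genes are given first, as a check of the labels and not as findings. Itgax, which encodes CD11c, had a log2 intensity of 16.31 and 16.42 in CD4+ cDC, against 14.50 and 14.50 in pre-cDC. Flt3, which encodes CD135, had a log2 intensity of 14.50 and 14.56 in CD4+ cDC, against 14.16 and 14.03 in pre-cDC. Both genes were thus well above background in both cell types. Both gates ask for CD11c, while only the pre-cDC gate asks for CD135. Sirpa, which encodes CD172a, had a log2 intensity of 14.78 and 14.84 in CD4+ cDC and 8.98 and 8.89 in CD8+ cDC, against 12.17 and 12.12 in pre-cDC. The pre-cDC gate asks for CD172a and the CD4+ cDC gate does not name it. Cd4 had a log2 intensity of 12.78 and 13.31 in CD4+ cDC and 11.55 and 11.27 in CD8+ cDC, against 11.27 and 11.31 in pre-cDC, and its difference was not called (log2 difference 1.76, SE 0.16, adjusted p = 7.07e-06); without CD4+ cDC replicate 1 it was 2.02 and was called. The mean Cd4 levels of pre-cDC and CD8+ cDC, whose gates lack or exclude CD4, thus lay within 2 log2 units of the CD4+ cDC mean. Cd8a was well above background on both arrays of neither group and was not tested.

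MHC class II genes encode the chains that show peptides to CD4 T cells and the proteins that load them, and class II at the surface was part of both gates, so their differences are a description. Of 19 class II presentation genes tested, 9 were higher and 0 lower in CD4+ cDC (7 higher and 0 lower of 16 on 4 measured arrays), where 10.7% and 6.73% of all genes tested were, with a median log2 difference of 1.43 against 0.17 over all genes. H2-Aa, an I-A alpha chain, had a log2 intensity of 17.04 and 17.22 in CD4+ cDC, against 11.52 and 11.59 in pre-cDC (log2 difference 5.58). H2-Ab1, the I-A beta chain, had a log2 intensity of 17.29 and 17.50 in CD4+ cDC, against 14.63 and 14.60 in pre-cDC (log2 difference 2.78). Cd74, the invariant chain, had a log2 intensity of 18.19 and 18.10 in CD4+ cDC, against 14.19 and 14.30 in pre-cDC (log2 difference 3.89). Transcripts of these chains were therefore well above background in pre-cDC too, although that gate excludes surface class II. H2-Oa and H2-Ob, which form the DO modulator of peptide loading, differed by 5.22 and 5.13 on the log2 scale. H2-DMb2, a chain of the DM loading protein, differed by 6.42. H2-Eb2, a second E beta chain gene, had a log2 intensity of 13.81 and 13.80 in CD4+ cDC and 9.92 and 9.83 in CD8+ cDC, against 2.98 and 2.99 in pre-cDC, and was at least 330.5-fold higher in CD4+ cDC than in pre-cDC. Ciita, the transactivator of class II genes, had a log2 intensity of 6.75 and 8.25 in CD4+ cDC and 12.75 and 12.30 in CD8+ cDC, against 7.16 and 6.89 in pre-cDC, and was not called between CD4+ cDC and pre-cDC (log2 difference 0.47, SE 0.59, adjusted p = 0.48); its 2 CD4+ cDC arrays differed by more than 1 log2 unit. Class II promoters are known to carry a Y box, the binding site of NF-Y, whose core is CCAAT. The letters CCAAT were searched on both strands in the 250 bases upstream of the start. Of the called genes of this list, 7 have a promoter in the RefSeq table, and all 7 had the letters. The share was 37.5% over all genes there and 33.8% over all 32851 promoters. The 7 are H2-Aa, H2-DMb2, H2-Eb1, H2-Eb2, H2-Oa, H2-Ob and Rfx5, of which Rfx5 encodes no class II chain. H2-Ab1 and Cd74 are not among them. The H2-Eb2 promoter is shown for the gene with the largest difference of the list (RefSeq, GRCm38.p6, chr17:34325425-34325674, plus strand, 5′ to 3′), with CCAAT in capitals, here on the opposite strand as ATTGG.
H2-Eb2: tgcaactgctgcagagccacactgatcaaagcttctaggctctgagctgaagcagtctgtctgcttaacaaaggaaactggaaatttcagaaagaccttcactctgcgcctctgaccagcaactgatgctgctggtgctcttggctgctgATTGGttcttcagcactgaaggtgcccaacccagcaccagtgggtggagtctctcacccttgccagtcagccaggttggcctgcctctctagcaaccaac

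Genes known for splenic cDC2 and for Notch signalling stood among the largest differences. Of 27 cDC2 genes tested, 9 were higher and 2 lower in CD4+ cDC, with a median log2 difference of 1.22 against 0.17 over all genes, and on 4 measured arrays 4 of 20 were higher and 2 lower. Dtx1, the Notch target Deltex that itself acts on Notch, had a log2 intensity of 15.47 and 15.63 in CD4+ cDC and 7.27 and 7.35 in CD8+ cDC, against 3.10 and 3.12 in pre-cDC. It was not well above background in pre-cDC, which makes it at least 1105-fold higher in CD4+ cDC (log2 difference 12.44, SE 0.49, adjusted p = 2.89e-08). No array of the larger design exceeded 7.35 for Dtx1. The CD4+ cDC arrays alone are of the smaller design, so cell type and array design cannot be told apart in this gap. Clec4a4, the inhibitory lectin DCIR2 that the antibody 33D1 reads on CD4+ cDC, had a log2 intensity of 14.26 and 14.13 in CD4+ cDC and 6.47 and 6.32 in CD8+ cDC, against 2.96 and 2.97 in pre-cDC. It was at least 432-fold higher in CD4+ cDC than in pre-cDC (log2 difference 11.23, SE 0.36, adjusted p = 8.9e-09). Esam, an adhesion protein that marks the Notch2-dependent CD4+ cDC, had a log2 intensity of 10.56 and 10.65 in CD4+ cDC and 8.16 and 7.90 in CD8+ cDC, against 2.98 and 2.99 in pre-cDC. It was at least 35.9-fold higher in CD4+ cDC than in pre-cDC, and both kinds of splenic cDC lay above pre-cDC.

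Ccr6, the receptor of the chemokine CCL20, had a log2 intensity of 13.08 and 13.39 in CD4+ cDC and 6.69 and 6.72 in CD8+ cDC, against 6.05 and 6.36 in pre-cDC. It was 131-fold higher in CD4+ cDC (log2 difference 7.03, SE 0.27, adjusted p = 2.52e-08), while the CD8+ cDC values lay within 1 log2 unit of the pre-cDC values. Relb, the NF-kappaB subunit that splenic CD4+ cDC need, had a log2 intensity of 15.57 and 15.39 in CD4+ cDC and 12.10 and 12.17 in CD8+ cDC, against 9.04 and 9.30 in pre-cDC, and was 79.3-fold higher in CD4+ cDC (log2 difference 6.31, SE 0.12, adjusted p = 5.78e-10). Il1r2, the decoy receptor for interleukin 1, had a log2 intensity of 10.07 and 10.19 in CD4+ cDC, against 5.63 and 5.23 in pre-cDC, and was well above background on 1 of the 2 pre-cDC arrays (log2 difference 4.70, SE 0.17, adjusted p = 2.09e-08). Tbx21, which encodes T-bet, a factor described in a subset of cDC2 and used by NK and T cells as well, had a log2 intensity of 10.84 and 10.92 in CD4+ cDC, against 7.29 and 6.94 in pre-cDC (log2 difference 3.76, SE 0.18, adjusted p = 9.81e-08). Epcam, an adhesion protein, was at least 2.51-fold higher. With the gate gene Sirpa these are the 9 cDC2 genes called higher.

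Not every cDC2 gene was higher. Irf4, a factor that cDC2 need, had a log2 intensity of 12.10 and 12.21 in CD4+ cDC and 7.73 and 7.79 in CD8+ cDC, against 9.998 and 9.98 in pre-cDC. The arrays did not overlap, yet the difference was not called in the fit on 14 arrays (log2 difference 2.17, SE 1.11, adjusted p = 0.102); fitted on the 4 arrays alone it was called, with an adjusted p of 0.000332. Klf4, which a part of the cDC2 line needs at the pre-cDC stage, had a log2 intensity of 11.24 and 11.99 in CD4+ cDC and 9.67 and 9.66 in CD8+ cDC, against 13.86 and 13.78 in pre-cDC, and fell by 2.20 on the log2 scale in CD4+ cDC (adjusted p = 5.76e-06, limma). Without CD4+ cDC replicate 1 its log2 difference of -1.83 was not called. Clec10a, a galactose-binding lectin, had a log2 intensity of 9.77 and 9.65 in CD4+ cDC, against 12.35 and 12.19 in pre-cDC, and fell by 2.56. Notch2 itself had a log2 intensity of 12.50 and 12.65 in CD4+ cDC and 12.92 and 12.96 in CD8+ cDC, against 12.79 and 12.60 in pre-cDC and was not called. Cd209a, the DC-SIGN gene of monocyte-derived and cDC2 cells, had a log2 intensity of 13.67 and 13.62 in CD4+ cDC and 8.63 and 8.68 in CD8+ cDC, against 13.94 and 13.75 in pre-cDC and was not called either. The pre-cDC, which the gate chose for CD172a, thus already had Notch2 and Cd209a within 0.5 log2 units of the CD4+ cDC mean.

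**Figure D2:**
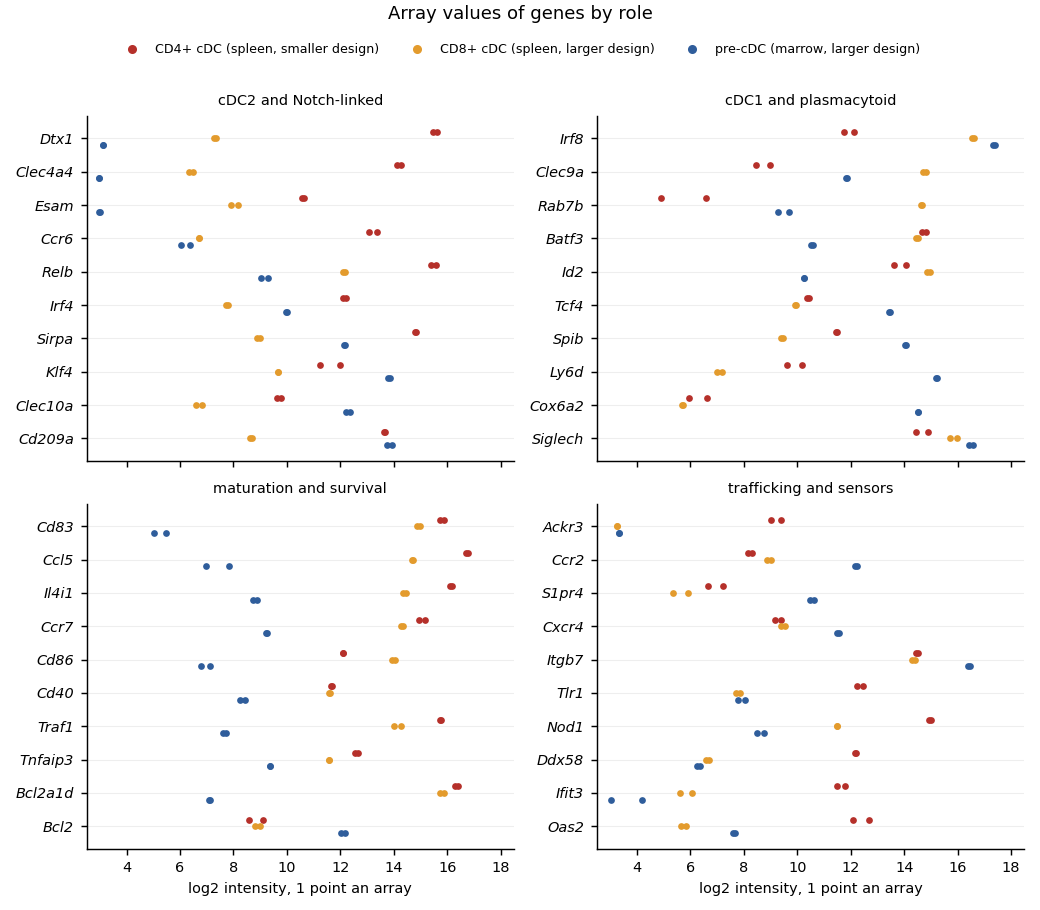
Log2 intensity of 40 genes by role, 1 point an array, for CD4+ cDC (spleen, smaller design), CD8+ cDC (spleen, larger design) and pre-cDC (marrow, larger design). Dtx1, Clec4a4 and Ccr6 have high points in CD4+ cDC alone, Cd83, Ccl5 and Bcl2a1d in both kinds of splenic cDC, and Irf8 low points in CD4+ cDC alone.

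Of the factors and receptors of the other cDC branch, Irf8 showed the largest fall. Irf8 had a log2 intensity of 12.11 and 11.74 in CD4+ cDC and 16.63 and 16.54 in CD8+ cDC, against 17.39 and 17.33 in pre-cDC. It was 43.2-fold higher in pre-cDC than in CD4+ cDC (log2 difference -5.43, SE 0.11, adjusted p = 6.62e-10), and the CD8+ cDC values lay within 1 log2 unit of the pre-cDC values. Batf3, the partner of IRF8 in cDC1, went the other way, with a log2 intensity of 14.82 and 14.67 in CD4+ cDC and 14.46 and 14.52 in CD8+ cDC, against 10.50 and 10.58 in pre-cDC (log2 difference 4.20, SE 0.09, adjusted p = 9.54e-10). Id2, the inhibitor of E proteins that all cDC use, had a log2 intensity of 14.08 and 13.62 in CD4+ cDC and 14.98 and 14.86 in CD8+ cDC, against 10.27 and 10.25 in pre-cDC (log2 difference 3.59, SE 0.15, adjusted p = 4.11e-08). Both kinds of splenic cDC thus lay above pre-cDC for Batf3 and Id2, and the kinds parted for Irf8.

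Over the cDC1 list, 8 of 20 genes tested were higher and 4 lower in CD4+ cDC (5 higher and 4 lower of 14 on 4 measured arrays), with a median log2 difference of 1.47 (0.46 with dim genes set at their bounds). The other genes called lower were Rab7b (log2 difference -3.74), Clec9a, the receptor for dead cells on cDC1 (-3.13), and Tlr12, a sensor of the parasite protein profilin (-2.14; -1.91 and not called without CD4+ cDC replicate 2). Clec9a had a log2 intensity of 8.46 and 8.96 in CD4+ cDC and 14.72 and 14.80 in CD8+ cDC, against 11.87 and 11.82 in pre-cDC, so the CD8+ cDC lay above the precursor and the CD4+ cDC below it. Rab7b, a small GTPase of endosomes, had a log2 intensity of 4.90 and 6.58 in CD4+ cDC and 14.67 and 14.63 in CD8+ cDC, against 9.28 and 9.67 in pre-cDC, in the same order. The other genes called higher were Snx22, Plpp1 and Wdfy4, with log2 differences between 2.49 and 2.71, and Tlr11, Cd36 and Pianp, which were at least 16.3-fold, at least 8.73-fold and at least 1.07-fold higher. Each of these 6 had a higher mean in CD8+ cDC than in CD4+ cDC; Plpp1 was not called without CD4+ cDC replicate 1 (1.93). Wdfy4, which cross-presentation needs in cDC1, had a log2 intensity of 16.78 and 16.89 in CD4+ cDC and 17.29 and 17.46 in CD8+ cDC, against 14.44 and 14.24 in pre-cDC. Xcr1, Tlr3, Cd8a, Gcsam and Cd207 were not well above background on both arrays of either group and were not tested.

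Genes that all classical dendritic cells share were called in 1 direction. Of 26 dendritic cell core genes tested, 8 were higher and 0 lower (7 higher and 0 lower of 25 on 4 measured arrays), with a median log2 difference of 1.52. Zbtb46, the factor that marks the committed cDC line, had a log2 intensity of 9.96 and 10.11 in CD4+ cDC, against 8.63 and 8.43 in pre-cDC and was not called (log2 difference 1.50, SE 0.16, adjusted p = 2.36e-05). Spi1, which encodes PU.1, had a log2 intensity of 11.30 and 11.26 in CD4+ cDC, against 10.99 and 11.02 in pre-cDC and was not called. Ffar2, a receptor for short-chain fatty acids, had a log2 intensity of 15.87 and 15.88 in CD4+ cDC and 12.24 and 12.26 in CD8+ cDC, against 7.26 and 7.29 in pre-cDC (log2 difference 8.60, SE 1.82, adjusted p = 0.00195). Rab30 was at least 33.6-fold higher, and Slamf7, P2ry10, Nectin1, Adam19 and Nav1 had log2 differences between 2.14 and 4.31.

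Over a wider list of 71 haematopoietic transcription factors tested, 14 were higher and 10 lower (9 higher and 9 lower of 62 on 4 measured arrays), with a median log2 difference of 0.27. Beside Relb, Batf3 and Id2, the factors called higher included Egr2, an immediate early factor (at least 38.5-fold), and Maf (at least 8.84-fold). Egr2 had a log2 intensity of 10.61 and 10.81 in CD4+ cDC and 10.32 and 10.29 in CD8+ cDC, against 3.37 and 3.47 in pre-cDC. Ahr, the aryl hydrocarbon receptor, had a log2 intensity of 11.78 and 11.88 in CD4+ cDC, against 9.01 and 9.03 in pre-cDC (log2 difference 2.81, SE 0.55, adjusted p = 0.00129), with 1.19 at a second probe. Beside Irf8, Klf4 and the plasmacytoid and progenitor factors below, Bach2, a repressor that lymphoid cells use, fell by 3.20 on the log2 scale.

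Genes known for plasmacytoid dendritic cells, the interferon-producing cells that share progenitors with cDC, were lower in CD4+ cDC. Of 23 tested, 15 were lower and 0 higher (0 higher and 13 lower of 21 on 4 measured arrays), with a median log2 difference of -2.43 against 0.17 over all genes. Cox6a2, a respiratory chain subunit gene known from muscle and plasmacytoid cells, had a log2 intensity of 5.95 and 6.60 in CD4+ cDC and 5.70 and 5.73 in CD8+ cDC, against 14.52 and 14.51 in pre-cDC, 302-fold higher in pre-cDC (log2 difference -8.24, SE 0.16, adjusted p = 6.07e-10). Upb1, an enzyme of pyrimidine breakdown, had a log2 intensity of 7.07 and 7.38 in CD4+ cDC and 7.43 and 7.46 in CD8+ cDC, against 15.22 and 15.11 in pre-cDC (log2 difference -7.94, SE 0.26, adjusted p = 1.05e-08). Dntt, the lymphoid DNA polymerase TdT, had a log2 intensity of 6.40 and 6.09 in CD4+ cDC and 6.18 and 6.04 in CD8+ cDC, against 12.30 and 12.30 in pre-cDC (log2 difference -6.06, SE 0.10, adjusted p = 2.17e-10). For these 3 genes both kinds of splenic cDC lay more than 5 log2 units below pre-cDC. The factors of the plasmacytoid line were lower too. Tcf4, which encodes the E protein E2-2 that this line needs, had a log2 intensity of 10.37 and 10.43 in CD4+ cDC and 9.93 and 9.95 in CD8+ cDC, against 13.43 and 13.48 in pre-cDC (log2 difference -3.06, SE 0.08, adjusted p = 2.48e-09). Runx2, which plasmacytoid cells use to leave the marrow, had a log2 intensity of 5.52 and 6.59 in CD4+ cDC, against 11.50 and 11.41 in pre-cDC (log2 difference -5.40, SE 0.27, adjusted p = 1.38e-07), but a dimmer probe of the gene differed the other way, by 3.41. Spib fell by 2.57. Ly6d, a surface protein of lymphoid and plasmacytoid precursors, had a log2 intensity of 9.61 and 10.16 in CD4+ cDC and 7.19 and 6.98 in CD8+ cDC, against 15.23 and 15.18 in pre-cDC, and Atp1b1, a sodium pump subunit, differed by -5.24. Havcr1 was at least 8.55-fold lower in CD4+ cDC. Siglech, whose protein is also on some pre-cDC, had a log2 intensity of 14.45 and 14.87 in CD4+ cDC and 15.97 and 15.71 in CD8+ cDC, against 16.59 and 16.43 in pre-cDC and was not called (log2 difference -1.85; -2.06 and called without CD4+ cDC replicate 2). On both pre-cDC arrays 23 of the 23 genes were well above background, as were 21 on both CD4+ cDC arrays and 20 on both CD8+ cDC arrays. The part of plasmacytoid cells in the pre-cDC values was not tested. The summed intensity of the 23 genes was 121475 and 124224 on the CD4+ cDC arrays and 154682 and 145638 on the CD8+ cDC arrays, against 420867 and 405279 on the pre-cDC arrays.

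**Figure D3:**
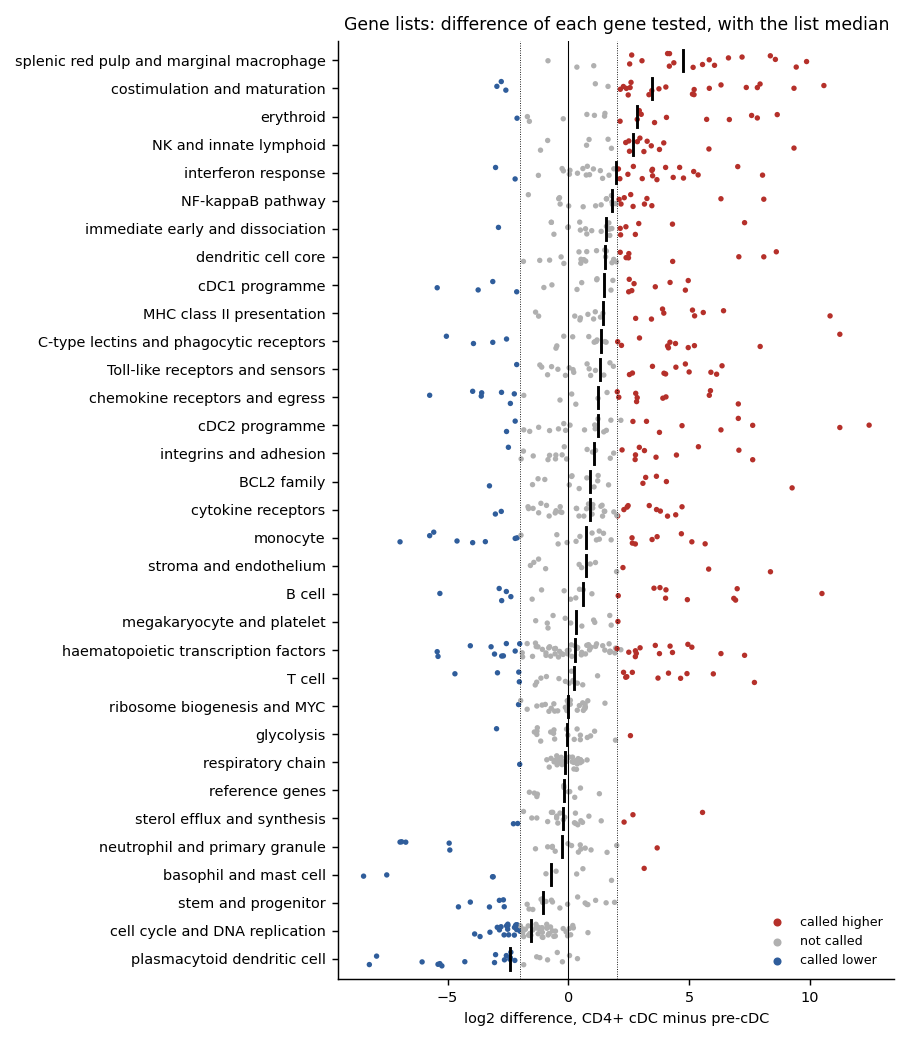
Log2 difference, CD4+ cDC minus pre-cDC, of each gene tested in 33 gene lists, 1 point a gene, with the list median as a black bar, ordered by median; the dotted lines mark a log2 difference of 2. Medians run between -2.43 for plasmacytoid genes and 4.76 for splenic macrophage genes, and the medians of respiratory chain and reference genes lie near 0.

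Costimulatory and maturation genes, which dendritic cells raise as they become able to prime T cells, were higher in CD4+ cDC. Of 25 tested, 20 were higher and 3 lower, with a median log2 difference of 3.45 against 0.17 over all genes, and on 4 measured arrays 10 of 14 were higher and 3 lower. Cd83, a surface protein that holds class II and CD86 at the membrane, had a log2 intensity of 15.73 and 15.88 in CD4+ cDC and 14.87 and 14.97 in CD8+ cDC, against 5.01 and 5.46 in pre-cDC. It was at least 1319-fold higher in CD4+ cDC, the largest such bound in the comparison (log2 difference 10.57, SE 0.24, adjusted p = 1.31e-09). Ccl5, a chemokine that draws T cells and is also an NK and T cell product, had a log2 intensity of 16.78 and 16.69 in CD4+ cDC and 14.69 and 14.74 in CD8+ cDC, against 7.83 and 6.97 in pre-cDC (log2 difference 9.33, SE 0.22, adjusted p = 1.52e-09). Il4i1, a secreted amino acid oxidase, had a log2 intensity of 16.19 and 16.11 in CD4+ cDC and 14.35 and 14.44 in CD8+ cDC, against 8.88 and 8.71 in pre-cDC (log2 difference 7.36, SE 0.07, adjusted p = 1.55e-11). Each of these genes was also far above the pre-cDC values in CD8+ cDC.

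Ccr7, which guides dendritic cells into T cell zones, had a log2 intensity of 15.16 and 14.95 in CD4+ cDC and 14.28 and 14.33 in CD8+ cDC, against 9.25 and 9.20 in pre-cDC (log2 difference 5.83, SE 0.21, adjusted p = 1.87e-08). Cd86, a ligand of CD28, had a log2 intensity of 12.08 and 12.08 in CD4+ cDC and 14.06 and 13.95 in CD8+ cDC, against 7.12 and 6.78 in pre-cDC (log2 difference 5.13, SE 0.12, adjusted p = 1.51e-09). Cd40, the receptor of the T cell ligand CD154, had a log2 intensity of 11.66 and 11.70 in CD4+ cDC and 11.62 and 11.58 in CD8+ cDC, against 8.26 and 8.43 in pre-cDC (log2 difference 3.33, SE 0.40, adjusted p = 4.88e-05). Ccr7 and Cd40 were at like levels in both kinds of splenic cDC, and Cd86 was highest in CD8+ cDC. Fscn1, an actin bundler of dendrites, was at least 52.7-fold higher. The inhibitory ligands Cd274 (PD-L1) and Pdcd1lg2 (PD-L2) were at least 95.4-fold and at least 28-fold higher. Cacnb3, Socs2 and Aldh1a2 were at least 36.4-fold, at least 13.7-fold and at least 7.62-fold higher, and Il15 and Cd70, also called, had bounds under the 4-fold threshold (at least 2.7-fold and at least 1.3-fold). Socs3, Socs1, Icosl, Tnfrsf4, Marcksl1 and Cd200 were the other genes called higher, with log2 differences between 2.15 and 3.74; without CD4+ cDC replicate 1, Cd200 (1.91) and Cd70 (2.17) were not called. Tnfrsf9 and its ligand Tnfsf9, the 4-1BB pair, were lower, with log2 differences of -2.96 and -2.59, as was Il15ra, the receptor chain that presents interleukin 15 (-2.78). Dimmer probes of Tnfrsf9 and Il15ra differed the other way, by 1.40 and 3.36 on the log2 scale. The study's labels do not say how long the cells were handled before lysis. Of 25 immediate early and dissociation genes tested, 7 were higher and 1 lower (6 higher and 1 lower of 24 on 4 measured arrays), with a median log2 difference of 1.57, among them Egr1 (4.30), Gadd45b (2.91) and Nr4a1 (2.77), with Zfp36 lower (-2.90), and their part in the maturation values was not tested. Jun, an immediate early gene that tissue handling raises, had a log2 intensity of 14.05 and 14.05 in CD4+ cDC, against 14.74 and 14.78 in pre-cDC and was not called.

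The NF-kappaB pathway, which switches on many maturation genes, had 10 of 24 genes tested higher and 0 lower (10 higher and 0 lower of 23 on 4 measured arrays), with a median log2 difference of 1.81. Beside Relb, Traf1, an adaptor of TNF receptors and itself an NF-kappaB target, had a log2 intensity of 15.77 and 15.72 in CD4+ cDC and 14.01 and 14.27 in CD8+ cDC, against 7.59 and 7.74 in pre-cDC (log2 difference 8.08, SE 0.18, adjusted p = 9.54e-10). Nfkb2, whose p52 product pairs with RelB, had a log2 intensity of 13.07 and 13.17 in CD4+ cDC, against 10.35 and 10.54 in pre-cDC (log2 difference 2.67, SE 0.09, adjusted p = 1.08e-08). Tnfaip3, the A20 brake on the pathway, had a log2 intensity of 12.67 and 12.54 in CD4+ cDC and 11.58 and 11.59 in CD8+ cDC, against 9.36 and 9.35 in pre-cDC (log2 difference 3.25, SE 0.08, adjusted p = 2.44e-09). The others were Birc3, Icam1, Map3k8, Tnip1, Birc2 and Nfkbie, with log2 differences between 2.10 and 3.45. Rela and Nfkb1, the subunits of the classical heterodimer, were not called, with log2 differences of 1.35 and 0.61.

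Genes of the BCL2 family, which set survival, were called higher in CD4+ cDC more often than lower, and the 1 gene called lower was Bcl2. Of 18 tested, 5 were higher and 1 lower (4 higher and 1 lower of 15 on 4 measured arrays), with a median log2 difference of 0.91 (0.37 with dim genes at their bounds), where 10.7% of all genes tested were higher and 6.73% lower. Bcl2a1d, a survival gene with near-identical copies that 1 probe may not tell apart, had a log2 intensity of 16.41 and 16.30 in CD4+ cDC and 15.74 and 15.90 in CD8+ cDC, against 7.13 and 7.07 in pre-cDC (log2 difference 9.25, SE 0.07, adjusted p = 3.55e-12). Bcl2, the founding survival gene, had a log2 intensity of 8.58 and 9.10 in CD4+ cDC and 8.98 and 8.82 in CD8+ cDC, against 12.19 and 12.03 in pre-cDC, 9.64-fold higher in pre-cDC (log2 difference -3.27, SE 0.18, adjusted p = 2.33e-07). Both kinds of splenic cDC thus had high Bcl2a1d and low Bcl2 beside the precursor. Among the death-promoting members, Bmf had a log2 intensity of 11.91 and 11.81 in CD4+ cDC, against 7.74 and 7.87 in pre-cDC and Pmaip1, which encodes Noxa, of 14.95 and 15.04 in CD4+ cDC, against 11.41 and 11.30 in pre-cDC, with log2 differences of 4.05 and 3.64. Bcl2l14 was higher too (3.08), and Bok, not well above background in pre-cDC, was at least 3.34-fold higher.

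Receptors that sense microbes were higher in CD4+ cDC in 11 of 28 genes tested and lower in 1 (8 higher and 1 lower of 23 on 4 measured arrays), with a median log2 difference of 1.29. Nod1, an intracellular sensor of bacterial cell wall, had a log2 intensity of 15.02 and 14.92 in CD4+ cDC and 11.47 and 11.50 in CD8+ cDC, against 8.49 and 8.73 in pre-cDC (log2 difference 6.35, SE 0.10, adjusted p = 1.92e-10). Ddx58, the viral RNA sensor RIG-I, had a log2 intensity of 12.16 and 12.21 in CD4+ cDC and 6.56 and 6.70 in CD8+ cDC, against 6.36 and 6.23 in pre-cDC (log2 difference 5.89, SE 0.20, adjusted p = 1.44e-08). Tlr1, a partner of TLR2 in lipopeptide sensing, had a log2 intensity of 12.24 and 12.46 in CD4+ cDC and 7.71 and 7.87 in CD8+ cDC, against 8.03 and 7.77 in pre-cDC (log2 difference 4.45, SE 0.25, adjusted p = 3.24e-07). In Ddx58 and Tlr1 the CD8+ cDC lay within 1 log2 unit of pre-cDC, and in Nod1 between the others. Nod2 was at least 13.9-fold higher and Tlr5, the flagellin receptor, at least 6.38-fold higher. Ifih1, Tlr6, Tlr13, Nlrc4 and Ly96 had log2 differences between 2.52 and 4.02. Tlr9, an endosomal receptor of DNA, was not called, with a log2 difference of -1.18.

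Among 26 C-type lectins and phagocytic receptors tested, 11 were higher and 4 lower (4 higher and 4 lower of 15 on 4 measured arrays, an even split). Beside Clec4a4, its cluster neighbours Clec4a1 and Clec4a3 were higher, with log2 differences of 4.14 and 4.43, and Clec4n, the fungal receptor Dectin-2, was at least 86.6-fold higher. Clec4a1 had a log2 intensity of 13.70 and 13.73 in CD4+ cDC and 8.23 and 8.28 in CD8+ cDC, against 9.59 and 9.57 in pre-cDC. Fcgr4, an activating Fc receptor, had a log2 intensity of 10.65 and 10.51 in CD4+ cDC, against 5.52 and 5.22 in pre-cDC (log2 difference 5.21, SE 0.34, adjusted p = 8.6e-07). Cd209d and Cd209e, DC-SIGN relatives, were lower, with log2 differences of -5.05 and -3.93.

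Interferon-response genes were higher in 17 of 34 tested and lower in 2 (11 higher and 2 lower of 27 on 4 measured arrays), with a median log2 difference of 1.97 against 0.17 over all genes. Ifit3, an antiviral RNA-binding protein gene, had a log2 intensity of 11.48 and 11.78 in CD4+ cDC and 5.60 and 6.04 in CD8+ cDC, against 4.18 and 3.02 in pre-cDC, and was at least 72.9-fold higher in CD4+ cDC (log2 difference 8.03, SE 0.33, adjusted p = 4.31e-08). Cxcl10, a chemokine for T cells, had a log2 intensity of 10.997 and 10.89 in CD4+ cDC and 10.50 and 10.54 in CD8+ cDC, against 4.45 and 3.43 in pre-cDC, and was at least 45.3-fold higher. Oas2, an activator of RNA decay, had a log2 intensity of 12.10 and 12.68 in CD4+ cDC and 5.66 and 5.83 in CD8+ cDC, against 7.66 and 7.60 in pre-cDC (log2 difference 4.76, SE 0.16, adjusted p = 1.08e-08). Isg15, a ubiquitin-like protein, had a log2 intensity of 14.07 and 14.06 in CD4+ cDC and 11.71 and 11.48 in CD8+ cDC, against 10.41 and 10.77 in pre-cDC (log2 difference 3.48, SE 0.12, adjusted p = 1.41e-08). Cxcl10 was thus high in both kinds of splenic cDC, while for Ifit3 and Oas2 the CD8+ cDC lay more than 5 log2 units below CD4+ cDC. Isg20, Rsad2, Ifih1, Gbp2 and Ifit2 were further members called higher, with log2 differences between 3.66 and 5.37, and Ifit1 was at least 6.84-fold higher. Of the factors of the pathway, Irf1 differed by 2.13 at its brightest probe, which was called, and by 0.58 at another, and Irf7, Irf9 and Stat2 were not, with log2 differences between 0.37 and 1.68. The genes lower in CD4+ cDC were Bst2, an interferon-induced protein that plasmacytoid cells also carry at rest (-3.02), and Iigp1 (-2.21), a second probe of which differed by 1.97.

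The interferon-stimulated response element is bound by IRFs, and a common core of it has the letters GAAA, any 2 bases, and GAAA again. It was searched on both strands in the 250 bases upstream of the start, with overlapping matches counted. Of the 15 called interferon genes with a promoter in the RefSeq table, 8 had it, against 3.46% of all genes there. By promoter, the share was 2.98% of all 32851. A match is a description of these letters and not a bound site. The promoters of Ifit3 (chr19:34583279-34583528, plus strand), Isg15 (chr4:156200819-156201068, minus strand) and Cxcl10 (chr5:92348890-92349139, minus strand) are shown as examples of the 8 genes that hold the letters, from RefSeq GRCm38.p6, 5′ to 3′, with the matches in capitals; in Ifit3 they are on the opposite strand, and in Isg15 3 matches overlap.
Ifit3: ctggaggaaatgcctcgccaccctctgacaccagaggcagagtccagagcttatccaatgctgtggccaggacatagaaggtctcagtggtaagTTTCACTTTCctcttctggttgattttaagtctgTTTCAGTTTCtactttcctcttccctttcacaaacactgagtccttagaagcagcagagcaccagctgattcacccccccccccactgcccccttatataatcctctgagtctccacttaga
Isg15: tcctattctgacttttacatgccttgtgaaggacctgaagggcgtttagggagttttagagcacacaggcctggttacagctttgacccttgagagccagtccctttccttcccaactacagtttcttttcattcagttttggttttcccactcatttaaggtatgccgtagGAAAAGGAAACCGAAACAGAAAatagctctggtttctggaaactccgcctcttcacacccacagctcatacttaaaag
Cxcl10: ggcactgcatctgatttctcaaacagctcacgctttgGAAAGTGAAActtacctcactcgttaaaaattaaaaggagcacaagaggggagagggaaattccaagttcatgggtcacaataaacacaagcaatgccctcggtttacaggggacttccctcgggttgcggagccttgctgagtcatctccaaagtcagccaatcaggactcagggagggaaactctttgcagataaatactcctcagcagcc

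Chemokine receptor and egress genes, which place cells in marrow, blood and spleen, were called in both directions. Of 23 tested, 10 were higher and 7 lower (3 higher and 7 lower of 14 on 4 measured arrays, where lower calls prevailed). Ccr2, the receptor that draws precursors and monocytes out of marrow, had a log2 intensity of 8.17 and 8.30 in CD4+ cDC and 9.02 and 8.86 in CD8+ cDC, against 12.24 and 12.15 in pre-cDC (log2 difference -3.96, SE 0.15, adjusted p = 2.6e-08). Cxcr4, the receptor that retains cells in marrow, had a log2 intensity of 9.40 and 9.16 in CD4+ cDC and 9.38 and 9.53 in CD8+ cDC, against 11.49 and 11.54 in pre-cDC (log2 difference -2.24, SE 0.08, adjusted p = 2.03e-08). Both were low in both kinds of splenic cDC beside the precursor. Among the sphingosine phosphate receptors, S1pr4, S1pr3 and S1pr2 were lower, with log2 differences of -3.61, -3.59 and -2.77, and S1pr1, called higher, had a bound of at least 1.92-fold. Ackr3, a scavenger of CXCL12, was not well above background in pre-cDC or CD8+ cDC and had a log2 intensity of 9.39 and 8.995 in CD4+ cDC, at least 13.5-fold higher than in pre-cDC. Ccr9 was lower (-2.40).

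Integrins and other adhesion genes were higher in 10 of 26 tested and lower in 1 (5 higher and 1 lower of 21 on 4 measured arrays). Beside Esam, F11r, the junction protein JAM-A, was at least 40.1-fold higher, and the tetraspanins Cd81, Cd9 and Cd82 had log2 differences of 5.38, 2.93 and 2.76. Cd81 had a log2 intensity of 14.27 and 13.75 in CD4+ cDC and 14.91 and 14.86 in CD8+ cDC, against 8.62 and 8.64 in pre-cDC. Itga4, a chain of VLA-4, had a log2 difference of 2.22 (1.44 at a second probe), and Itga5, the fibronectin receptor chain, one of -2.49. Of 40 cytokine receptors tested, 10 were higher and 2 lower (5 higher and 2 lower of 32 on 4 measured arrays). Tgfbr2 had a log2 intensity of 12.83 and 12.63 in CD4+ cDC, against 9.41 and 9.36 in pre-cDC and Tgfbr1, the other chain of the TGF-beta receptor, of 6.18 and 6.86 in CD4+ cDC, against 9.54 and 9.54 in pre-cDC, with log2 differences of 3.34 and -3.02; second probes of these genes differed by 1.54 and -0.25. Il2rg, the common gamma chain, had a log2 intensity of 13.55 and 13.31 in CD4+ cDC and 9.03 and 9.13 in CD8+ cDC, against 9.55 and 9.71 in pre-cDC (log2 difference 3.80, SE 0.10, adjusted p = 2.28e-09).

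Several genes of primary granules and of basophils were lower in CD4+ cDC. Mpo, the myeloperoxidase of primary granules, had a log2 intensity of 8.38 and 7.40 in CD4+ cDC and 6.22 and 6.04 in CD8+ cDC, against 14.82 and 14.76 in pre-cDC, 119.6-fold higher in pre-cDC (log2 difference -6.90, SE 0.25, adjusted p = 1.68e-08). The serine proteases of the same granules, Ctsg, Prtn3 and Elane, were lower, with log2 differences of -6.97, -6.73 and -4.94, as was Ms4a3, a gene of granulocyte-monocyte progenitors (-4.91). Over the neutrophil and primary granule list 5 of 20 genes tested were lower and 1, Cd63, was higher (1 higher and 5 lower of 18 on 4 measured arrays). Ltf, Ngp, S100a9, Retnlg and Lcn2, genes of later neutrophil stages, were not called. Mcpt8, a basophil protease, had a log2 intensity of 3.07 and 4.05 in CD4+ cDC and 3.64 and 3.66 in CD8+ cDC, against 11.89 and 12.18 in pre-cDC, and was at least 232-fold lower in CD4+ cDC, the largest bound in that direction. Prss34, another basophil protease, had a log2 intensity of 5.43 and 5.64 in CD4+ cDC and 5.77 and 5.46 in CD8+ cDC, against 12.96 and 13.14 in pre-cDC (log2 difference -7.52, SE 0.11, adjusted p = 1.73e-10). Cpa3 was lower too (-3.11), Fcer1a was at least 8.4-fold lower, and Mcpt4 was at least 2.65-fold higher, under the 4-fold threshold. The 5 others of the 10 basophil and mast cell genes tested were not called (0 higher and 2 lower of 6 on 4 measured arrays).

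Stem and progenitor genes were lower in 6 of 25 tested and higher in 0 (0 higher and 6 lower of 23 on 4 measured arrays), with a median log2 difference of -1.04 against 0.17 over all genes. Myb, a factor of immature haematopoietic cells, had a log2 intensity of 8.10 and 8.12 in CD4+ cDC and 9.67 and 9.52 in CD8+ cDC, against 12.12 and 12.22 in pre-cDC (log2 difference -4.06, SE 0.07, adjusted p = 2.56e-10). Adgrg1, an adhesion receptor of stem cells, had a log2 intensity of 6.55 and 6.29 in CD4+ cDC, against 10.92 and 11.03 in pre-cDC (log2 difference -4.55, SE 0.16, adjusted p = 1.81e-08). Cd34, the progenitor sialomucin, had a log2 intensity of 9.29 and 8.99 in CD4+ cDC, against 11.80 and 11.79 in pre-cDC (log2 difference -2.66, SE 0.14, adjusted p = 1.77e-07). Sox4, Cd93 and Bcl2 were the others. Monocyte genes were called in both directions, 8 higher and 8 lower of 28 tested (3 higher and 8 lower of 22 on 4 measured arrays). F13a1, Ly6c1 and Fn1 were lower, with log2 differences of -5.57, -4.61 and -3.44, whereas Adgre4 (at least 42.6-fold) and Ear2, genes of monocytes of the Ly6C-low kind and of macrophages, were higher. Ear2 had a log2 intensity of 14.33 and 14.13 in CD4+ cDC and 11.78 and 11.71 in CD8+ cDC, against 9.51 and 9.60 in pre-cDC, 25.5-fold higher in CD4+ cDC than in pre-cDC (log2 difference 4.67, SE 0.09, adjusted p = 4.32e-10).

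The cell cycle genes that were called were lower in CD4+ cDC. Of 63 tested, 22 were lower and 0 higher (0 higher and 21 lower of 62 on 4 measured arrays), with a median log2 difference of -1.56 against 0.17 over all genes. Cdk1, the kinase that drives mitosis, had a log2 intensity of 7.60 and 7.67 in CD4+ cDC and 9.77 and 9.72 in CD8+ cDC, against 11.15 and 11.43 in pre-cDC, 12.6-fold higher in pre-cDC (log2 difference -3.66, SE 0.08, adjusted p = 1.19e-09). Plk1, a kinase of the mitotic spindle, had a log2 intensity of 11.23 and 11.48 in CD4+ cDC and 12.06 and 12.11 in CD8+ cDC, against 14.64 and 14.57 in pre-cDC (log2 difference -3.25, SE 0.09, adjusted p = 3.54e-09). Aurkb, a kinase of chromosome segregation, was not well above background in CD4+ cDC and was at least 6.48-fold lower there. Kif11, Kif23 and Cks2 followed, with log2 differences between -2.95 and -2.79. Mki67, the Ki-67 gene, had a log2 intensity of 13.84 and 13.88 in CD4+ cDC and 13.42 and 13.57 in CD8+ cDC, against 15.53 and 15.38 in pre-cDC; its log2 difference of -1.59 was under the threshold of 2. Of the 64 genes measured, 62 were still well above background on both CD4+ cDC arrays, and Pcna and Mcm6, genes of DNA replication, had log2 differences of -0.10 and -0.22 that were not called. Of 28 ribosome biogenesis genes tested, 1, Fbl, was lower (-2.06; -1.95 and not called without CD4+ cDC replicate 1) and 0 were higher (0 higher and 1 lower of 27 on 4 measured arrays), with a median log2 difference of -0.03.

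**Figure D4:**
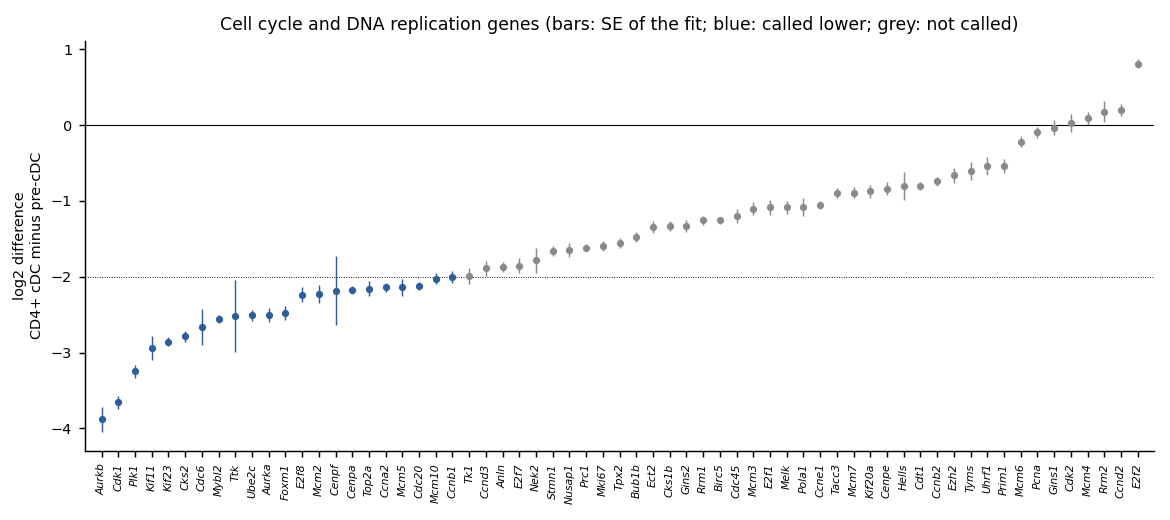
Log2 difference, CD4+ cDC minus pre-cDC, of the 63 cell cycle and DNA replication genes tested, in order of size, with the SE of the limma fit as bars. Blue points are the 22 genes called lower and grey points those not called; the dotted line marks a log2 difference of -2.

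Promoters of mitotic genes are known for CCAAT boxes bound by NF-Y and for the cell cycle homology region, whose letters are TTTGAA. In the 250 upstream bases, CCAAT was in 17 of the 19 called cell cycle genes with a promoter in the RefSeq table. The share over all genes there was 37.5%. TTTGAA was in 7 of the 19, against 18.3% of all genes. By promoter, the shares were 33.8% for CCAAT and 16.0% for TTTGAA. Both strands were searched, and matches of the 2 motifs did not overlap in the sequence shown. The Cdk1 promoter is shown for the kinase at the head of the measured genes of the list (RefSeq, GRCm38.p6, chr10:69352913-69353162, minus strand, 5′ to 3′). Capitals mark TTTGAA, and CCAAT on the opposite strand as ATTGG.
Cdk1: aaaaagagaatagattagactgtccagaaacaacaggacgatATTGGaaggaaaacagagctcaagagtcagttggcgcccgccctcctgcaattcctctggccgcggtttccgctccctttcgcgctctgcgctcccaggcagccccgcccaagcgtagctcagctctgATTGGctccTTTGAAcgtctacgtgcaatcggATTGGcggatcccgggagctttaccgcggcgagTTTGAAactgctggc

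Markers of splenic macrophages were higher on the CD4+ cDC arrays. Sorting method, tissue, slide and array design all differ from those of pre-cDC, and the source of these markers was not tested. Of 20 red pulp and marginal zone macrophage genes tested, 17 were higher and 0 lower (3 higher and 0 lower of 5 on 4 measured arrays), the highest list median of the comparison (4.76; 4.27 with dim genes at their bounds). Spic, the factor of iron-recycling red pulp macrophages, had a log2 intensity of 12.95 and 12.14 in CD4+ cDC and 10.43 and 10.36 in CD8+ cDC, against 3.12 and 3.12 in pre-cDC. Vcam1, an adhesion molecule of those macrophages, had a log2 intensity of 14.09 and 12.16 in CD4+ cDC and 11.70 and 11.80 in CD8+ cDC, against 3.48 and 3.06 in pre-cDC. C1qa, a complement chain of macrophages, had a log2 intensity of 12.98 and 11.38 in CD4+ cDC and 8.78 and 8.96 in CD8+ cDC, against 3.10 and 4.56 in pre-cDC. The CD8+ cDC thus lay between CD4+ cDC and pre-cDC in these genes. Cd5l and Slc40a1, the iron exporter ferroportin, were at least 85.3-fold and at least 56.1-fold higher, and Marco and Adgre1, which encodes F4/80, differed by 6.62 and 6.04. The summed intensity of the list was 113944 and 48633 on the CD4+ cDC arrays and 31074 and 28389 on the CD8+ cDC arrays, against 13325 and 13481 on the pre-cDC arrays, with CD4+ cDC replicate 1 above replicate 2. Of the 17 genes called higher, 13 were over 1 log2 unit higher on CD4+ cDC array 1 than on array 2 and 0 the other way round, against 131 and 10 of all 1395 genes called higher. For the 9 cDC2 genes, the 20 maturation genes and the 17 interferon genes called higher, both counts were 0. They were 2 and 0 for the 8 cDC1 genes, and 2 and 0 for the 11 lectin and phagocytic receptor genes. For monocyte (8 called higher), chemokine receptor (10), cytokine receptor (10) and stromal genes (3) they were 1 and 0 in each list. T cell (10) and NK genes (12) had 0 and 1 in each list. The cause of these counts was not tested. Mrc1, Axl and Hmox1, macrophage genes that some dendritic cells also use, had log2 differences between 4.10 and 4.36, and Mertk and Nr1h3 were at least 6.47-fold and at least 43.2-fold higher. The macrophage list bears on Maf, Adgre4, Stab1 and other macrophage genes, and its part in their values was not tested.

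Erythroid genes were higher in 11 of 19 tested and lower in 1 (7 higher and 1 lower of 13 on 4 measured arrays). Hba-a1, an alpha globin with a near-identical copy, had a log2 intensity of 18.06 and 18.33 in CD4+ cDC and 15.50 and 15.67 in CD8+ cDC, against 10.34 and 10.42 in pre-cDC (log2 difference 7.82, SE 0.09, adjusted p = 3.8e-11). Alas2, the first enzyme of red cell haem synthesis, had a log2 intensity of 13.12 and 13.37 in CD4+ cDC and 10.54 and 10.72 in CD8+ cDC, against 4.52 and 4.69 in pre-cDC, and was at least 223-fold higher in CD4+ cDC. Hbb-bs, Hbb-bt and Slc4a1 differed by 7.58, 6.66 and 5.72, and Hemgn was lower (-2.13; -1.90 and not called without CD4+ cDC replicate 1). Of the 11 genes called higher, 6 were over 1 log2 unit higher on CD4+ cDC array 1 than on array 2. The summed intensity of the erythroid list was 455193 and 540969 in CD4+ cDC and 137135 and 148415 in CD8+ cDC, against 63204 and 62534 in pre-cDC.

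Of 23 B cell genes tested, 10 were higher and 5 lower in CD4+ cDC (1 higher and 4 lower of 12 on 4 measured arrays), so the balance turned among measured genes. Jchain, the joining chain of plasma cells, had a log2 intensity of 15.67 and 15.24 in CD4+ cDC and 12.39 and 12.30 in CD8+ cDC, against 5.06 and 4.87 in pre-cDC, and was at least 1034-fold higher in CD4+ cDC. Ms4a1, which encodes CD20, had a log2 intensity of 10.25 and 10.45 in CD4+ cDC and 10.75 and 10.71 in CD8+ cDC, against 3.53 and 3.48 in pre-cDC. Cd79b had a log2 intensity of 12.74 and 12.85 in CD4+ cDC, against 12.31 and 12.36 in pre-cDC, where no call was made. Pax5 and Ebf1, factors that define B cells, were not well above background on both arrays of either group. The 5 lower genes were Ly6d, Spib and Blnk, which plasmacytoid cells share, Igll1 and Fcrla. The summed intensity of the list was 81899 and 70421 in CD4+ cDC and 15832 and 15277 in CD8+ cDC, against 79311 and 79320 in pre-cDC. The CD4+ cDC and pre-cDC sums overlapped, but unlike genes carried them. Jchain was a large part of the CD4+ cDC sum and was not well above background in pre-cDC. Ly6d was a large part of the pre-cDC sum and was lower in CD4+ cDC.

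Of 27 T cell genes tested, 10 were higher and 4 lower in CD4+ cDC (1 higher and 4 lower of 15 on 4 measured arrays), with the same turn among measured genes. Cd3e had a log2 intensity of 7.73 and 8.43 in CD4+ cDC and 10.07 and 10.004 in CD8+ cDC, against 9.18 and 9.73 in pre-cDC and was not called. Cd3d was at least 6.5-fold higher and Tcf7, a T cell factor, at least 12.2-fold higher. Icos had a log2 intensity of 10.80 and 10.98 in CD4+ cDC and 10.02 and 9.96 in CD8+ cDC, against 3.19 and 3.20 in pre-cDC, high in both kinds of splenic cDC. Thy1 was lower, with a log2 intensity of 5.95 and 8.28 in CD4+ cDC, against 11.75 and 11.88 in pre-cDC. Lck, the kinase at the T cell receptor, Cd27 and Sh2d2a were lower too, with log2 differences of -2.03, -2.94 and -2.06 (-1.07 at a second probe of Sh2d2a). Without CD4+ cDC replicate 1, Lck (-1.73) and Sh2d2a (-1.83) were not called, nor was Sh2d2a without pre-cDC replicate 2 (-1.77). Bcl11b, Themis, Trat1, Cd247, Ctla4, Foxp3 and Gimap7 were not tested, being too dim. Summed over the T cell list, the intensity was 15516 and 17560 in CD4+ cDC and 5402 and 5480 in CD8+ cDC, against 13918 and 16094 in pre-cDC.

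Natural killer and innate lymphoid genes were higher in 12 of 18 tested and lower in 0 (4 higher and 0 lower of 6 on 4 measured arrays), with a median log2 difference of 2.69. Klrd1, the CD94 receptor that some dendritic cells also carry, had a log2 intensity of 13.75 and 13.82 in CD4+ cDC, against 10.69 and 10.64 in pre-cDC (log2 difference 3.12, SE 0.20, adjusted p = 7.46e-07). Gzma, a granzyme, had a log2 intensity of 9.03 and 10.71 in CD4+ cDC, against 7.49 and 7.20 in pre-cDC, and was not called without CD4+ cDC replicate 2 (1.68). Klrb1c, which encodes NK1.1, had a log2 intensity of 5.97 and 6.54 in CD4+ cDC, against 3.41 and 3.39 in pre-cDC, where pre-cDC were not well above background. Ncr1, which defines NK cells, had a log2 intensity of 4.90 and 5.09 in CD4+ cDC, close to the floor, and was not called, and Eomes was too dim to be tested. Nkg7 and Prf1 had negative log2 differences that were not called (-0.86 and -1.16). The list's part in the values of Ccl5 and Tbx21, which it holds too, was not tested. Its summed intensity was 135483 and 131327 in CD4+ cDC and 31005 and 31664 in CD8+ cDC, against 8772 and 9393 in pre-cDC, and Ccl5 alone reached a log2 intensity of 16.78 and 16.69 in CD4+ cDC. Ccl5 thus made up most of this sum in CD4+ cDC, and also in CD8+ cDC.

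Of 12 stromal and endothelial genes tested, 3 were higher and 0 lower (1 higher and 0 lower of 6 on 4 measured arrays): Stab2, a scavenger receptor of sinus endothelium (at least 110.1-fold), Sparc (5.80) and Tcf21 (at least 1.28-fold; 2.25 in the fit, 1.13 and not called without CD4+ cDC replicate 1). Stab2 had a log2 intensity of 12.52 and 11.93 in CD4+ cDC and 9.05 and 9.19 in CD8+ cDC, against 3.19 and 4.54 in pre-cDC, whereas the endothelial gene Cdh5 had a log2 difference of -1.24 that was not called. Of 12 megakaryocyte and platelet genes tested, 1 was higher, Clec1b (2.05), and 0 lower (1 higher and 0 lower of 10 on 4 measured arrays); Clec1b was not called without CD4+ cDC replicate 1 (1.73) or pre-cDC replicate 2 (1.95).

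**Figure D5:**
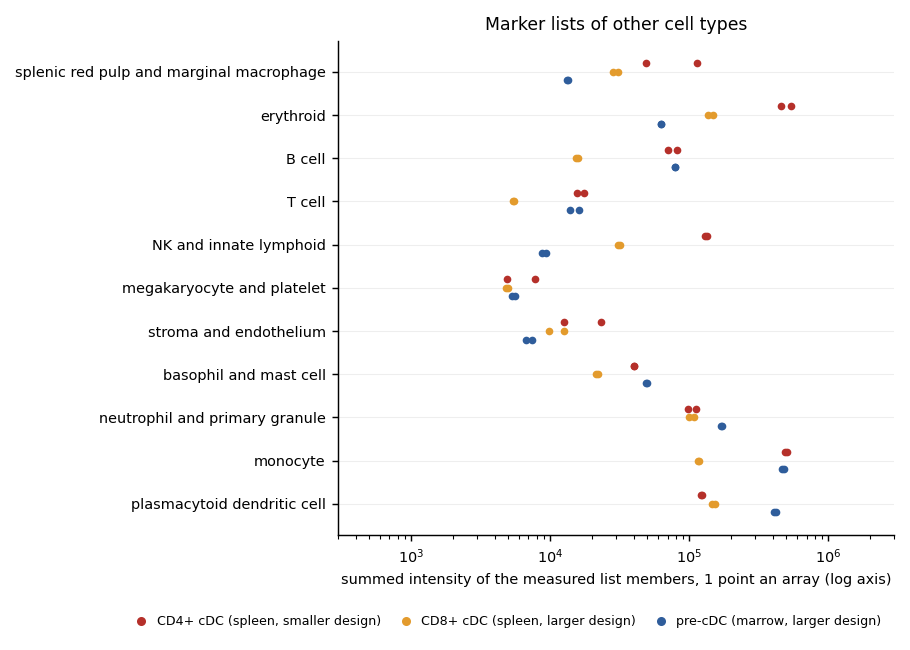
Summed intensity of the measured members of 11 marker lists of other cell types (log axis), 1 point an array, for CD4+ cDC, CD8+ cDC and pre-cDC. The CD4+ cDC points are highest for macrophage, erythroid, NK, monocyte and stroma lists, and the pre-cDC points for plasmacytoid, basophil and neutrophil lists. Most of the NK sum in both kinds of splenic cDC is Ccl5, which is also in the maturation list. Monocyte sums were 491346 and 503223 on the CD4+ cDC arrays, against 482275 and 469699 on the pre-cDC arrays.

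Few of the genes that every cell uses were called at the log2 threshold of 2. Of 32 respiratory chain genes tested, 0 were higher and 1, Atp5o, was lower (-2.02; -1.68 without CD4+ cDC replicate 2 and -1.96 without pre-cDC replicate 2, not called), with a median log2 difference of -0.14. Of 11 reference genes tested, none was called, by the same limma rule, with a median of -0.19 and the lowest log2 difference, for Tfrc, at -1.62. At a log2 threshold of 1, 1 reference gene was higher and 4 were lower, and 0 respiratory chain genes were higher and 1 lower. With scanner signals scaled to the 75th percentile the reference median was -0.91. Of 21 glycolysis genes tested, 1 was higher, Pfkfb3 (2.56; 1.19 at a second probe), and 1 lower, Pfkp (-2.98). At a log2 threshold of 1 these counts were 3 and 6. Of 25 sterol genes tested, 3 were higher and 2 lower (1 higher and 2 lower of 23 on 4 measured arrays), with Fdps and Dhcr7, enzymes of synthesis, at -2.28 and -2.10, and Nr1h3, the efflux regulator LXR-alpha, at least 43.2-fold higher. Mylip, which marks the LDL receptor for breakdown, had a log2 difference of 2.30 (1.42 at a second probe), and Scd1, a fatty acid desaturase, was at least 1.15-fold higher.

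The largest differences outside these lists followed from the naming rule. Sirpb1a and Sirpb1b, activating relatives of the CD172a gene whose close sequence 1 probe may not tell apart, had log2 intensities in CD4+ cDC of 15.80 and 15.92 for Sirpb1a and 15.71 and 15.81 for Sirpb1b. In pre-cDC they had 5.89 and 5.72 for Sirpb1a and 5.23 and 4.55 for Sirpb1b. Ltb, which encodes lymphotoxin beta, had a log2 intensity of 16.71 and 16.62 in CD4+ cDC and 12.73 and 12.88 in CD8+ cDC, against 8.36 and 8.09 in pre-cDC (log2 difference 8.44, SE 0.11, adjusted p = 6.52e-11). Asb2, a ubiquitin ligase subunit, had a log2 intensity of 14.79 and 14.47 in CD4+ cDC and 13.15 and 13.30 in CD8+ cDC, against 4.70 and 3.20 in pre-cDC, and was at least 584-fold higher. Ube2e2, Ppp1r14a and Rasgef1b were higher by 8.23, 7.97 and 7.37 on the log2 scale. In the other direction Kcnk12, a potassium channel subunit, Plppr3, Epha2, an ephrin receptor, Srpx2 and Evpl had log2 differences of -7.50, -6.78 (-1.66 at a second probe), -6.40, -6.30 and -5.998. Ptprf, a receptor phosphatase, was at least 208-fold lower, and Sun5, Chdh and Fgl1 were at least 137-fold, at least 51.6-fold and at least 48.5-fold lower.

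The range of the 12 larger-design arrays puts these levels beside the rest of the study. Of the 1395 genes called higher, 785 had both CD4+ cDC arrays above all 12 of those arrays. Of the 880 called lower, 389 had both below all 12. Over all 13078 genes tested, 3019 had both CD4+ cDC arrays outside the range, in either direction. Sun5 had a log2 intensity of 3.96 and 3.77 in CD4+ cDC, against 11.24 and 11.31 in pre-cDC, and the lowest of the 12 arrays was 9.04. Srpx2 had 6.06 and 5.96 in CD4+ cDC, against 12.32 and 12.30 in pre-cDC, and the lowest of the 12 arrays was 9.15. In both genes the arrays of all 6 other groups thus lay above the CD4+ cDC arrays, which alone are of the smaller design, and cell type and array design cannot be told apart there. The same limit holds for Kcnk12 and Fgl1, whose CD4+ cDC arrays also lay below all 12.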

How the data were processed

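The members and gene lists were chosen with earlier results of these data known. Total RNA was labelled with Cy3 by a low-input kit and hybridised to Agilent arrays of 1 colour (labels' protocols). The scanner's spot intensities were extracted with Agilent Feature Extraction 10.7.3.1, per the file headers. The value tables that the authors deposited hold intensities on a linear scale for 39429 shared probes; the steps behind them are not stated there. Their sorted values were alike in all 14 columns (median 46.02), and for single-spot probes each column followed its array's processed signal (Spearman correlation of at least 0.999999). For probes with several spots the pre-cDC columns did not (0.338 and 0.320), so these were left out.

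The log2 of the deposited intensities was fitted with limma 3.58.1 (lmFit, contrasts, eBayes, two-sided; R 4.3.3, with the data.table package at 1.17.8) on 14 arrays in 7 groups, with 8.64 total degrees of freedom. SE is from this fit. Of 38971 probes, 26331 had 1 symbol by accession (RefSeq, GRCm38.p6) and 12640 had none. Named are the 12 largest called genes in each direction on 4 measured arrays, the 5 largest bounds in each, called list members (a few are not reported here), gate genes and a fixed set of regulators; genes given as not called beyond these, and counts by array in a list, were chosen after their values were seen. Myc, Kit, Fos, Tlr2, Tlr4 and other genes with multi-spot probes were not analysed here. The median signal stands in for the mean in the normexp alternative, since the scanner files used here give the median. The fit was tested on simulated data. Same-numbered replicates did not deviate together (correlation -0.018). The work used Python 3.11.15, pandas 2.3.3 and matplotlib 3.10.9. Precision is limited by 2 arrays a group.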

Additional observations from a re-analysis of the deposited data

How the results depend on the processing

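The 2 counts of calls, 1395 higher and 880 lower, stayed within 1.5 times under most settings and not under these. Normexp background correction with quantile normalization gave 652 higher and 479 lower. Counting only genes well above background on all 4 arrays gave 561 higher (736 lower). A log2 threshold of 1 gave 3101 higher and 2285 lower, and one of 3 gave 703 higher and 338 lower; fewer or more genes pass these by construction, and the cause of the normexp change was not tested. Leaving out 1 array gave 1326 to 1459 higher and 856 to 921 lower. Scanner signals scaled to the 75th percentile gave 1136 higher and 1045 lower (52.1% higher against 61.3%), and moved the median log2 difference of all genes tested to 0.0006, against 0.17. The replicate block, with numbers that do not pair the samples, gave 1394 higher and 880 lower. Of 235 called genes named in the text and closing section, 188 kept their call with normexp, 224 with the 75th percentile, 222 with a floor on low values, 234 on the 4 arrays alone (all but Tcf21), 234 with multi-spot probes kept (all but Socs2), and 225 and 232 without CD4+ cDC replicates 1 and 2, and 235 and 232 without pre-cDC replicates 1 and 2. With the mean of a gene's probes, 223 kept it and Il15ra changed sign, at 0.288. Of genes not called, Ciita was at 1.22 without CD4+ cDC replicate 1 and at -0.271 without replicate 2, and Ncr1 at -0.447 with the floor. Signal over background limits the genes at the pre-cDC floor, for which folds are bounds alone.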

Other observations

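Some called genes of these lists belong in no paragraph above. Among receptors for inflammatory peptides and lymphoid chemokines, Fpr2 and Fpr1, which bind formyl peptides, were at least 4.96-fold and at least 6.67-fold higher in CD4+ cDC than in pre-cDC, and Cxcr5, the receptor for the follicular chemokine CXCL13, had a log2 intensity of 6.93 and 7.35 in CD4+ cDC and 4.22 and 3.55 in CD8+ cDC, against 3.10 and 3.11 in pre-cDC and was at least 3.25-fold higher in CD4+ cDC. Among cytokine receptors, Tnfrsf1b, the second TNF receptor, had a log2 intensity of 10.63 and 10.60 in CD4+ cDC and 8.80 and 8.44 in CD8+ cDC, against 6.51 and 5.84 in pre-cDC and was well above background on 1 of the 2 pre-cDC arrays (log2 difference 4.44, SE 0.19, adjusted p = 4.84e-08). Ifngr1, the ligand-binding chain of the interferon gamma receptor, had a log2 intensity of 14.65 and 14.62 in CD4+ cDC and 15.08 and 15.04 in CD8+ cDC, against 12.21 and 12.13 in pre-cDC (log2 difference 2.47, SE 0.05, adjusted p = 6.07e-10). Il2ra, which encodes CD25, was at least 3.65-fold higher in CD4+ cDC and was not well above background in CD8+ cDC either. Tnfrsf11a, the receptor RANK, had a log2 intensity of 11.67 and 11.59 in CD4+ cDC and 11.45 and 11.40 in CD8+ cDC, against 9.30 and 9.38 in pre-cDC (log2 difference 2.29, SE 0.07, adjusted p = 6.87e-09). Treml4, a receptor of CD8+ cDC and spleen macrophages, had a log2 intensity of 10.70 and 10.15 in CD4+ cDC and 11.01 and 11.16 in CD8+ cDC, against 7.05 and 6.88 in pre-cDC (log2 difference 3.46, SE 0.16, adjusted p = 6.97e-08). Itga9, an integrin chain, was at least 6.98-fold higher in CD4+ cDC.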
